A study of Mus musculus with 5 samples.

Results

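The genes described here are 8 members of the extracellular protease system that were listed in both deposited expression tables of a mouse pancreatic cancer study: Mmp2, Mmp3, Mmp7 and Mmp14 of the matrix metalloproteinases, their tissue inhibitors Timp1, Timp2 and Timp3, and the related secreted protease Adamts1. They were chosen by name, and all 8 were found among the 12579 genes that both tables hold. All 8 passed the filter on low counts in every main comparison below. Mmp3 and Mmp7 did not pass it in some of the alternative fits.

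Matrix metalloproteinases are zinc enzymes that cut collagens, basement membrane proteins, growth factors and other proteases outside the cell. Most are secreted as inactive precursors and are blocked by tissue inhibitors that sit in the active site. In pancreatic ductal adenocarcinoma the enzymes are known from both the fibroblast-rich stroma and the malignant ducts, and Mmp7 is a known product of duct-like and metaplastic epithelium.

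The libraries came from advanced pancreatic tumours of 2 genotypes, KPPCN (libraries 1 and 2) and KPPC (libraries C3, D3 and H2), from mice 7 to 8 weeks old. As background from the study, both genotypes lack both copies of Trp53 in cells with a history of pancreatic Cre expression, and KPPCN cells of that lineage lack Nsdhl as well, an enzyme of late cholesterol synthesis. Dissociated cells were freed of dead cells and depleted of CD45-positive blood cells, about 6000 cells were loaded per library, and transcripts were counted near their 3′ ends with unique molecular identifiers (UMIs) by droplet single-cell sequencing. Cells outside the Cre lineage keep Nsdhl. Whether the cells of any class here belong to that lineage was not tested. The labels give 3 mice of each genotype, and a further KPPCN tumour is not analysed here. The codes C3, D3 and H2 name 3 sets of cells in the KPPC table and match no sample number. They were taken as the 3 KPPC samples, and every SD and p-value below rests on that reading.

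After filtering, 5147 and 1985 cells of the KPPCN libraries and 3663, 3196 and 2464 cells of the KPPC libraries were used, with totals of 25746317 to 77088231 UMIs over the shared genes. KPPCN 1 stood apart from the other 4 libraries. Its median cell held 2129 UMIs, against 17204 to 21560 in the others, and it held 1067 B/plasma-like and 1299 T/NK-like cells, against at most 9 and 42 elsewhere. Nsdhl was at 14.1 and 11.7 UMIs per 1000000 (CPM) in KPPCN libraries, against 15.2, 18.3 and 16.8 CPM in KPPC libraries. Its 3′ tags may lie outside the deleted stretch and cells outside the Cre lineage keep the gene, so these values check nothing. Between 0 and 6 cell barcodes were shared by any pair of libraries.

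Cells were grouped into clusters without the 8 genes and 40 other protease genes, and clusters were called by cell class from marker genes. Fibroblast-like cells carried Col1a1 at 9188 and 11833 CPM in KPPCN and at 8766, 5789 and 11298 CPM in KPPC, and epithelial-like cells carried the surface marker Epcam at 640 and 1435 CPM in KPPCN and at 1422, 1820 and 1306 CPM in KPPC. A further population, 4 clusters with the tumour suppressor Cdkn2a and the chromatin protein Hmga2 both among their 20 leading genes, could be given no cell class. It had Cdkn2a at 989 to 1141 CPM in all 5 libraries and Epcam at 7.9 and 1.4 CPM in KPPCN and 16.8, 47.3 and 14.3 CPM in KPPC. It is called the Cdkn2a/Hmga2 clusters below, and it held 281 and 1437 cells in KPPCN and 490, 128 and 54 cells in KPPC.

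Promoters are shown for the 3 proteases whose cell class differed most plainly: the fibroblast gene Mmp3, the epithelial gene Mmp7 and the broadly transcribed Mmp14. Each sequence is the 150 bases before the RefSeq transcription start (build GRCm38.p6), written 5′ to 3′ on the gene's strand, with capitals at matches to 3 motifs on either strand. The motifs searched were TGANTCA (the AP-1 site), TATAAA (the TATA box) and GGGCGG (the GC box).
Mmp3, chr9:7445672-7445821, plus strand: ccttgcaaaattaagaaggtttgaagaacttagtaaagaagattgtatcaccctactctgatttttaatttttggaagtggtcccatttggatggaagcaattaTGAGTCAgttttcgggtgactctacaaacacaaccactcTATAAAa
Mmp7, chr9:7691940-7692089, plus strand: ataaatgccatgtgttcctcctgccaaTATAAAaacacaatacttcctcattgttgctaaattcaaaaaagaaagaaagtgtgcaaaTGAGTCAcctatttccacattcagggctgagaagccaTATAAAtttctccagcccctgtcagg
Mmp14, chr14:54431448-54431597, plus strand: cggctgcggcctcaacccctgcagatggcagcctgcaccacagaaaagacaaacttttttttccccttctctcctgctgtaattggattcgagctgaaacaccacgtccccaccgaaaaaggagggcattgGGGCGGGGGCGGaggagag
Mmp3 and Mmp7, which lie near each other on chromosome 9, each had the letters TGAGTCA, 46 and 63 bases before the start, and both also had TATAAA. The TATAAA letters lay 7 bases before the start in Mmp3, and 123 and 26 bases before it in Mmp7. The Mmp14 window had neither motif and held 2 adjacent GC boxes, 19 and 13 bases before the start. Of 32851 RefSeq promoter windows of that length, 4.24% held TGANTCA, 7.57% held TATAAA and 28.6% held GGGCGG. Among the 7 members with a RefSeq promoter entry, TGANTCA occurred in 2 (Mmp3 and Mmp7), TATAAA in 3 (those and Adamts1) and GGGCGG in 5 (Mmp14, the 3 inhibitors and Adamts1). These are matches of letters, with no measure of binding.

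Mmp2 (gelatinase A, chr8:92827291-92853420), which cuts denatured collagen and type IV collagen, was a fibroblast-like gene in every library. Summed UMIs of the fibroblast-like cells gave 924 and 1069 CPM in KPPCN 1 and 2 and 1258, 520 and 1119 CPM in the KPPC libraries C3, D3 and H2. Library D3 was the low one, and the other 4 lay close together. No other class averaged more than 101 CPM, so that the fibroblast-like mean of 978 ± 283 CPM (SD, n = 5 libraries) stood clear of the mesothelial-like mean of 101 ± 30.2 CPM (n = 4). Below the fibroblast-like cells the order of classes was not separated beyond the spread of libraries.

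Mmp3 (stromelysin 1, chr9:7445822-7455975), which cuts proteoglycans and laminin and can activate other metalloproteinases, followed the same pattern at its own level. Fibroblast-like cells held 205 and 173 CPM in KPPCN and 143, 113 and 190 CPM in KPPC, and all other classes were at or under 22.8 CPM in every library with 20 or more cells. In epithelial-like cells Mmp3 was at 7.15 CPM in KPPCN 1 and 0.79 to 2.29 CPM in KPPC. In KPPCN 2 it had 0 UMIs in 41 epithelial-like cells, which allows up to 4.12 CPM.

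Mmp2 was also counted in blood cells of KPPCN 1, which should lack it. Its T/NK-like cells had it at 70.8 CPM and its B/plasma-like cells at 78.2 CPM, and 6.83% and 6.26% of them had a Mmp2 UMI after each cell was thinned to 1000 UMIs. The same thinned share in fibroblast-like cells was 50.8 and 60.5% in KPPCN and 66.9, 37.5 and 64.1% in KPPC. In epithelial-like cells it was 2.27 and 12.5% in KPPCN and 2.96, 1.08 and 0.54% in KPPC. The median B/plasma-like and T/NK-like cell of KPPCN 1 held 1158 and 1776 UMIs, its fibroblast-like cells 4028.5 and its epithelial-like cells 6452. Unthinned, the Mmp2 share was 78.3 and 97.1% in KPPCN and 98.1, 75.8 and 94.9% in KPPC fibroblast-like cells. Thinning left out 111 and 1 KPPCN and 6, 6 and 4 KPPC fibroblast-like cells, 2 and 1 KPPCN and 7, 36 and 7 KPPC epithelial-like cells, and 220 B/plasma-like and 113 T/NK-like cells of KPPCN 1. The thinned epithelial-like share of KPPCN 1 lay below those of both its blood cell classes, and no expression is read from it. Timp1 was at 250 CPM in B/plasma-like and at 241 CPM in T/NK-like cells of KPPCN 1. Blood cells of KPPC C3 also had Mmp2, on few UMIs. It was at 41.4 CPM in 64 erythroid-like cells (17 UMIs), 50.7 CPM in 35 neutrophil-like cells (4 UMIs) and 25.8 CPM in 42 T/NK-like cells (3 UMIs). The 21 and 30 neutrophil-like cells of D3 and H2 had 0 Mmp2 UMIs.

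Mmp7 (matrilysin, chr9:7692090-7699585), a small secreted metalloproteinase without the usual C-terminal domain, was the member found in epithelial-like cells. It had 114 and 52.1 CPM in KPPCN epithelial-like cells, against 356, 153 and 252 CPM in those of KPPC. Both KPPCN libraries were below all 3 KPPC libraries, and they rested on few cells: 112 and 38 UMIs from 90 and 41 cells. The counting interval of KPPCN 2 was 36.9 to 71.6 CPM (95%, Poisson, counting error only). Acinar-like cells, present in 20 or more cells in 2 KPPC libraries, held 9.49 and 49.6 CPM. Every other named class averaged between 0.76 and 7.31 CPM, and fibroblast-like cells had 0.61 and 0.96 CPM in KPPCN and 7.14, 2.75 and 4.06 CPM in KPPC. The thinned share of cells with a Mmp7 UMI was 6.82 and 22.5% of KPPCN and 17.3, 10.6 and 14.6% of KPPC epithelial-like cells, and 0 to 0.63% of fibroblast-like cells. Unthinned it was 18.9 and 26.8% in KPPCN and 49.1, 37.4 and 40.6% in KPPC epithelial-like cells. KPPCN 2 had the highest share and the lowest CPM, so no order between genotypes is read from these shares.

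Mmp14 (membrane type 1 metalloproteinase, chr14:54431612-54445364), which is anchored in the cell membrane, cuts fibrillar collagen and activates pro-Mmp2 together with Timp2, was the most widely spread protease. Pericyte-like cells, found in sufficient number only in KPPC, held 493, 531 and 555 CPM. Fibroblast-like cells held 480 and 451 CPM in KPPCN and 371, 262 and 478 CPM in KPPC. Endothelial-like cells held 399 CPM in KPPCN 2 and 251, 267 and 364 CPM in KPPC. The means of these 3 classes, 526 ± 31.0, 408 ± 92.9 and 320 ± 72.3 CPM, were in that order, but fibroblast-like and endothelial-like cells were within an SD of each other. Epithelial-like cells held 95.03 and 97.4 CPM in KPPCN and 110, 112 and 129 CPM in KPPC, and Cdkn2a/Hmga2 clusters 122 and 211 CPM in KPPCN and 105, 119 and 167 CPM in KPPC.

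The 3 inhibitors differed in their cell classes. Timp1 (chrX:20870166-20874735), which is secreted and inducible, was highest in fibroblast-like cells, with 4099 and 5370 CPM in KPPCN and 2819, 7948 and 5328 CPM in KPPC. Leaving aside the mixed unnamed cells, which averaged 2808 ± 856 CPM (n = 5), Cdkn2a/Hmga2 clusters followed with 1863 and 830 CPM in KPPCN and 1633, 1411 and 2253 CPM in KPPC, and mesothelial-like and pericyte-like cells averaged 1485 ± 933 (n = 4) and 1183 ± 94.5 CPM (n = 3). The Cdkn2a/Hmga2, mesothelial-like and pericyte-like populations were not separated beyond their spread. Epithelial-like cells had 418 and 178 CPM in KPPCN and 266, 276 and 246 CPM in KPPC. In the KPPCN table Syn1 and Syn3, which overlap Timp1 and Timp3 on the opposite strand, and Cep295nl, which overlaps Timp2 on the same strand, had 577, 291 and 239 UMIs, beside 152424, 29747 and 57029 for the inhibitors themselves, and reads shared with them cannot be told apart.

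Timp2 (chr11:118301069-118355740, minus strand), which takes part in the activation of pro-Mmp2 as well as in inhibition, was the member whose highest mean lay in the Cdkn2a/Hmga2 clusters. They held 1123 and 719 CPM in KPPCN and 1505, 1108 and 1224 CPM in KPPC. The mixed unnamed cells, left aside here, averaged 890 ± 175 CPM (n = 5). Mesothelial-like cells averaged 1072 ± 188 CPM (n = 4) and fibroblast-like cells 782 ± 246 CPM (n = 5), beside a Cdkn2a/Hmga2 mean of 1136 ± 282 CPM, so that the mesothelial-like mean was within an SD of it and the ranges of all 3 overlapped. Fibroblast-like cells were nevertheless below the Cdkn2a/Hmga2 clusters of the same library in all 5 libraries, at 0.515 to 0.868 of their level. Epithelial-like cells had 346 and 272 CPM in KPPCN and 211, 190 and 170 CPM in KPPC.

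Timp3 (chr10:86300372-86349506), which binds to the extracellular matrix and also inhibits ADAM and ADAMTS proteases, was a gene of mesothelial-like and fibroblast-like cells. Mesothelial-like cells averaged 1836 ± 620 CPM (n = 4), and the mixed unnamed cells, left aside here, 1387 ± 551 CPM (n = 5). Fibroblast-like cells held 778 and 1383 CPM in KPPCN and 1438, 2848 and 2326 CPM in KPPC, a mean over libraries of 1755 ± 824 CPM that cannot be separated from the mesothelial-like one. Endothelial-like cells had 1457 CPM in KPPCN 2 and 1350, 349 and 607 CPM in KPPC, and were made of 2 unlike clusters. Cluster 21 held Timp3 at 2084 CPM in KPPCN 2 and 1983, 1637 and 1945 CPM in KPPC, and cluster 14 at 289 CPM in KPPCN 2 and 419, 266 and 192 CPM in KPPC. Cluster 21 gave 19 of the 35 endothelial-like cells in KPPCN 2, and 95 of 198, 10 of 165 and 46 of 207 in KPPC. Cdkn2a/Hmga2 clusters held 187 and 50.7 CPM in KPPCN and 78.2, 140 and 83.8 CPM in KPPC. Their mean of 108 ± 54.9 CPM was far below the stromal classes and near the epithelial-like mean of 54.8 ± 20.6 CPM.

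Adamts1 (chr16:85793827-85803113, minus strand), a secreted protease that cuts large proteoglycans such as versican and aggrecan, was highest in endothelial-like cells. They held 248 CPM in KPPCN 2 and 452, 279 and 259 CPM in KPPC, followed by fibroblast-like cells with 185 and 290 CPM in KPPCN and 276, 185 and 156 CPM in KPPC. The 2 classes overlapped between libraries, and the mixed unnamed cells averaged 200 ± 22.7 CPM (n = 5). Cdkn2a/Hmga2 clusters had 96.0 and 191 CPM in KPPCN and 61.4, 74.0 and 67.9 CPM in KPPC, and epithelial-like cells 31.7 and 46.6 CPM in KPPCN and 53.1, 52.7 and 36.9 CPM in KPPC.

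**Figure D1:**
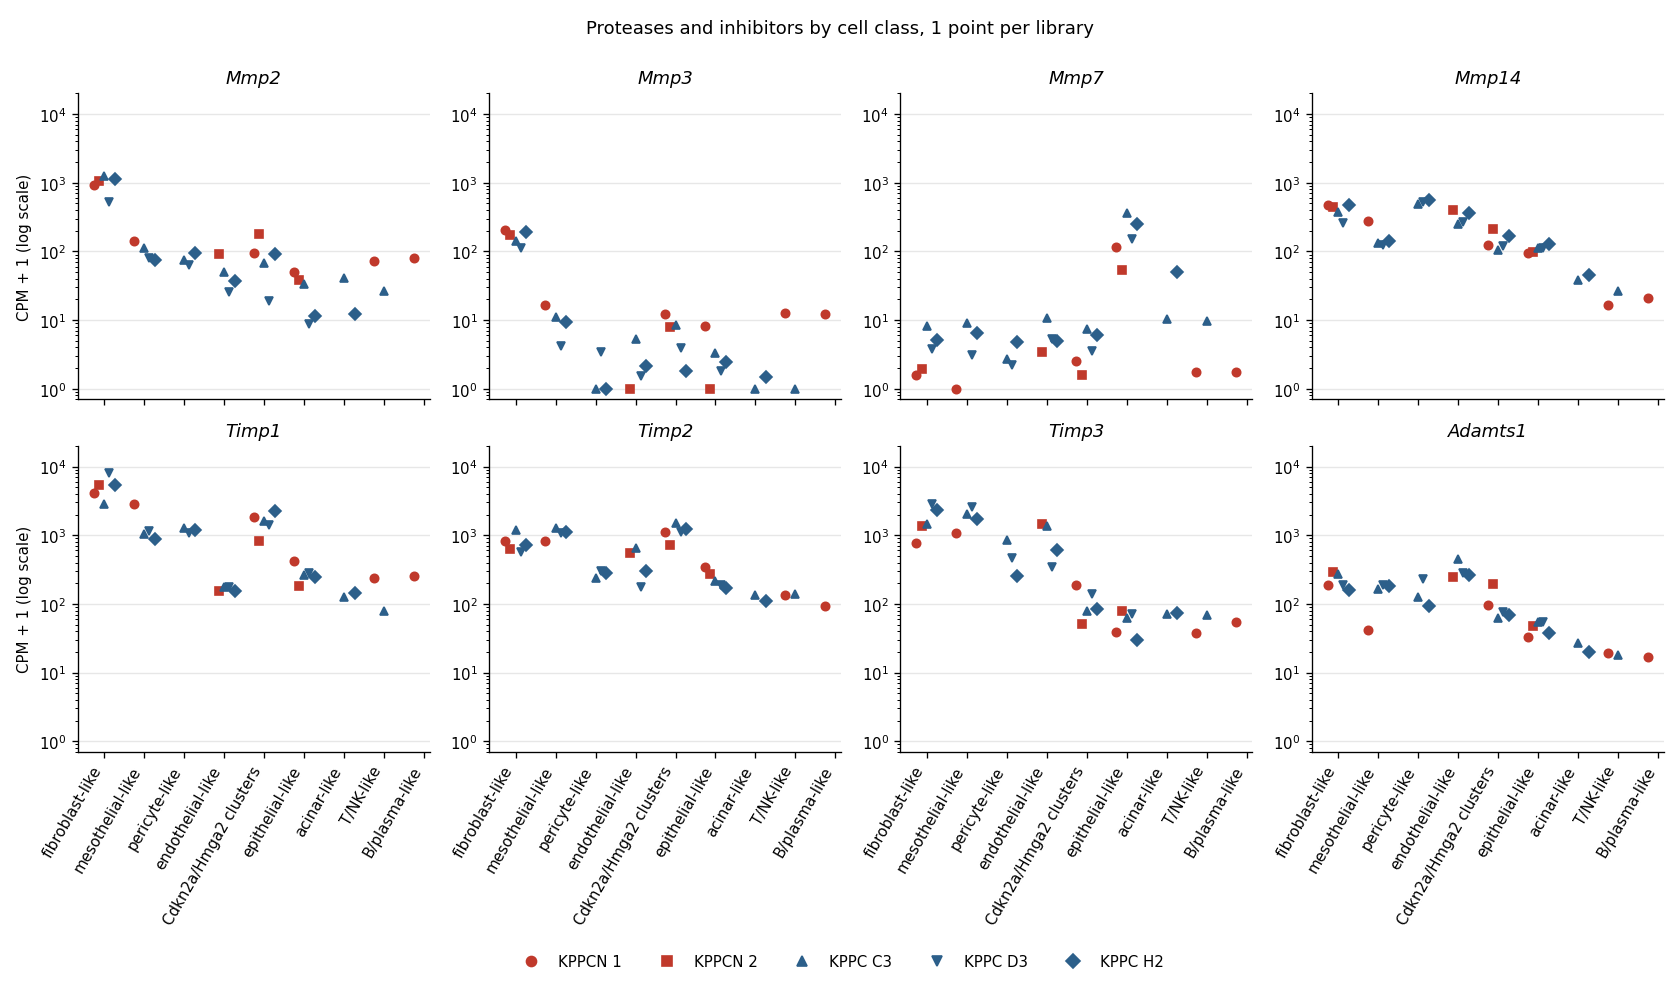
Level of each gene (CPM + 1, log axis, the same limits in all panels) in each cell class, with 1 point per library that holds at least 20 cells of the class (red KPPCN, blue KPPC); neutrophil-like, erythroid-like and unnamed cells are not drawn. Mmp2 and Mmp3 stand highest in fibroblast-like cells, Mmp7 in epithelial-like cells (52.1 to 356 CPM), and Timp3 is about as high in mesothelial-like as in fibroblast-like cells.

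The fibroblast-like class was made of 6 clusters in which the genes took different places. The cluster led by Dpt, Dcn and Lum (cluster 0) had Mmp2 at 998 and 1404 CPM in KPPCN and at 1315, 1399 and 1666 CPM in KPPC. Among clusters 0, 6, 9 and 17, where a library held at least 20 cells of the cluster, it was the lowest for Timp3 in every library and for Timp1 in every library but KPPCN 2. The 17 cells of cluster 17 in KPPCN 1 were too few for this and had Timp3 at 125 CPM, under cluster 0. Timp1 was at 2369 and 2558 CPM in KPPCN and at 1383, 1190 and 1941 CPM in KPPC, and Timp3 at 254 and 534 CPM in KPPCN and 462, 438 and 750 CPM in KPPC. Both KPPCN libraries were above the 3 KPPC libraries for Timp1 there, while for Timp3 they overlapped. Mmp3 in cluster 0 varied widely among libraries of 1 genotype, with 723 and 327 CPM in KPPCN and 186, 600 and 170 CPM in KPPC.

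Cluster 9, led by Ndufa4l2, Timp1 and Cryab and with no fibroblast marker among its 10 leading genes, was the opposite of cluster 0. It had the highest Timp1 of the 6, with 12133 and 9086 CPM in KPPCN and 9343, 10515 and 7685 CPM in KPPC, together with Timp3 at 1982 and 3254 CPM in KPPCN and 2616, 3361 and 2759 CPM in KPPC. Its Mmp2 was lower than in cluster 0 of the same library throughout, at 591 and 643 CPM in KPPCN and 609, 148 and 226 CPM in KPPC. The genotypes overlapped for Timp1 and Timp3. Cluster 9 gave 397 of the 756 fibroblast-like cells of KPPC D3, the library with the lowest Mmp2 and the highest Timp1 and Timp3 of the class.

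Cluster 6, led by the imprinted transcript H19 and by Hsd11b1, joined high Mmp2 (1739 and 1389 CPM in KPPCN, 1558, 1522 and 1193 CPM in KPPC) with the highest Timp3 of the 6 clusters in KPPCN 1, C3 and H2. Timp3 was at 2562 and 1687 CPM there in KPPCN, beside 3752, 3312 and 4801 CPM in KPPC, and Mmp14 was at 829 and 1236 CPM in KPPCN, beside 476, 514 and 635 CPM in KPPC. Both KPPCN libraries lay below KPPC for Timp3 and above it for Mmp14, on 77 and 23 KPPCN cells. These differences inside single clusters were chosen for mention after the values were seen and have no test. The share of all genes that come apart in those clusters was not counted. Cluster 3 (Tnxb, Col14a1) held 1282 of the 1614 fibroblast-like cells of KPPCN 1 and 4 to 18 cells of every other library. Its levels, among them Timp3 at 345 CPM and Mmp2 at 973 CPM, thus describe 1 library, and they carry most of the class sum of KPPCN 1.

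**Figure D2:**
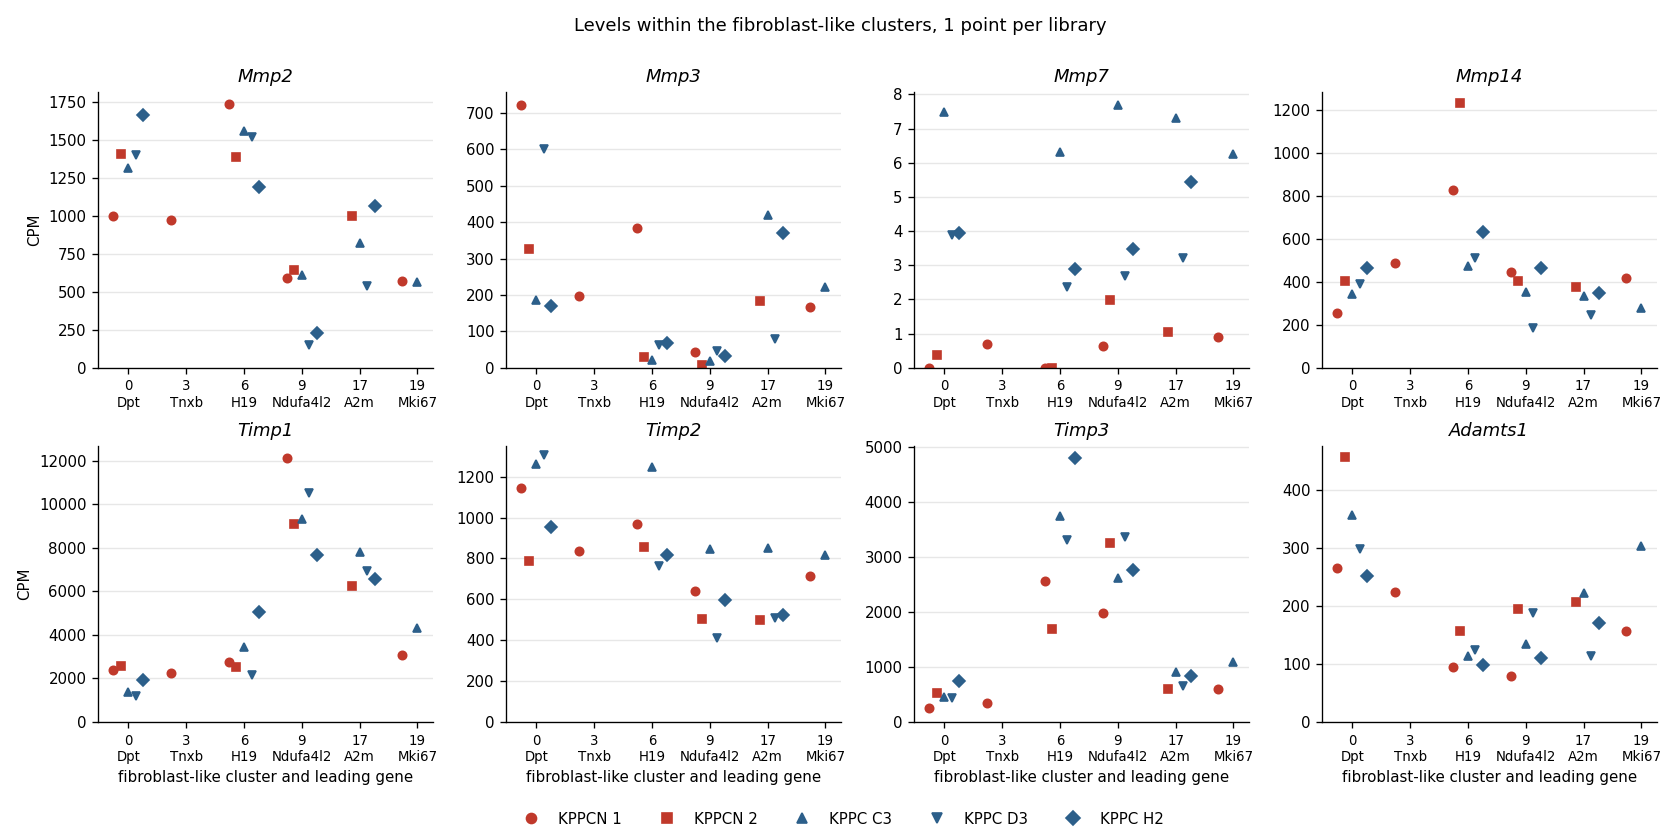
CPM (linear axes from 0, 1 scale per gene) in the 6 fibroblast-like clusters, named by number and leading gene, with 1 point per library that holds at least 20 cells of the cluster (red KPPCN, blue KPPC). Timp1 peaks in cluster 9 (7685 to 12133 CPM), Timp3 in clusters 6 and 9, and cluster 3 has a point for KPPCN 1 alone.

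Within the epithelial-like cells, the clusters led by Epcam and Krt7 (cluster 1) and by the gastric-type mucus peptide Tff2 and by Gsta4 (cluster 7) had opposite orders. In the 4 libraries with 20 or more cells of both, Mmp7 was higher in cluster 7, with 137 CPM in KPPCN 1 and 484, 187 and 413 CPM in KPPC, than in cluster 1, with 97.1 CPM in KPPCN 1 and 225, 132 and 164 CPM in KPPC. Mmp14 was lower in cluster 7, with 61.5 CPM in KPPCN 1 and 49.4, 51.5 and 61.5 CPM in KPPC, than in cluster 1, with 115 CPM in KPPCN 1 and 177, 149 and 169 CPM in KPPC. Timp1 and Timp2 had the order of Mmp14 in the same 4 libraries. KPPCN 2 held 30 cells of cluster 1, with Mmp7 at 51.9 CPM, and 7 of cluster 7.

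The Cdkn2a/Hmga2 clusters were set beside the epithelial-like cells of the same library. Timp1 was 4.46 to 9.15 times and Timp2 2.65 to 7.21 times as high in the Cdkn2a/Hmga2 clusters, in all 5 libraries. Mmp2 was 1.85 to 8.66 times and Adamts1 1.16 to 4.09 times as high there, also in all 5. The Mmp2 fold of 1.85 was that of KPPCN 1, from 92.7 CPM over 50.1 CPM. Both of its T/NK-like and B/plasma-like values, 70.8 and 78.2 CPM, lay above that epithelial-like level, so nothing is read from this fold. Mmp7 was the reverse, at 0.0116 to 0.02 of the epithelial-like level, with 1.54 and 0.61 CPM in KPPCN and 6.55, 2.61 and 5.03 CPM in KPPC Cdkn2a/Hmga2 clusters. Mmp14 and Timp3 were higher in 4 of 5 libraries. These are descriptions without a test, since clusters were drawn on the same cells.

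**Figure D3:**
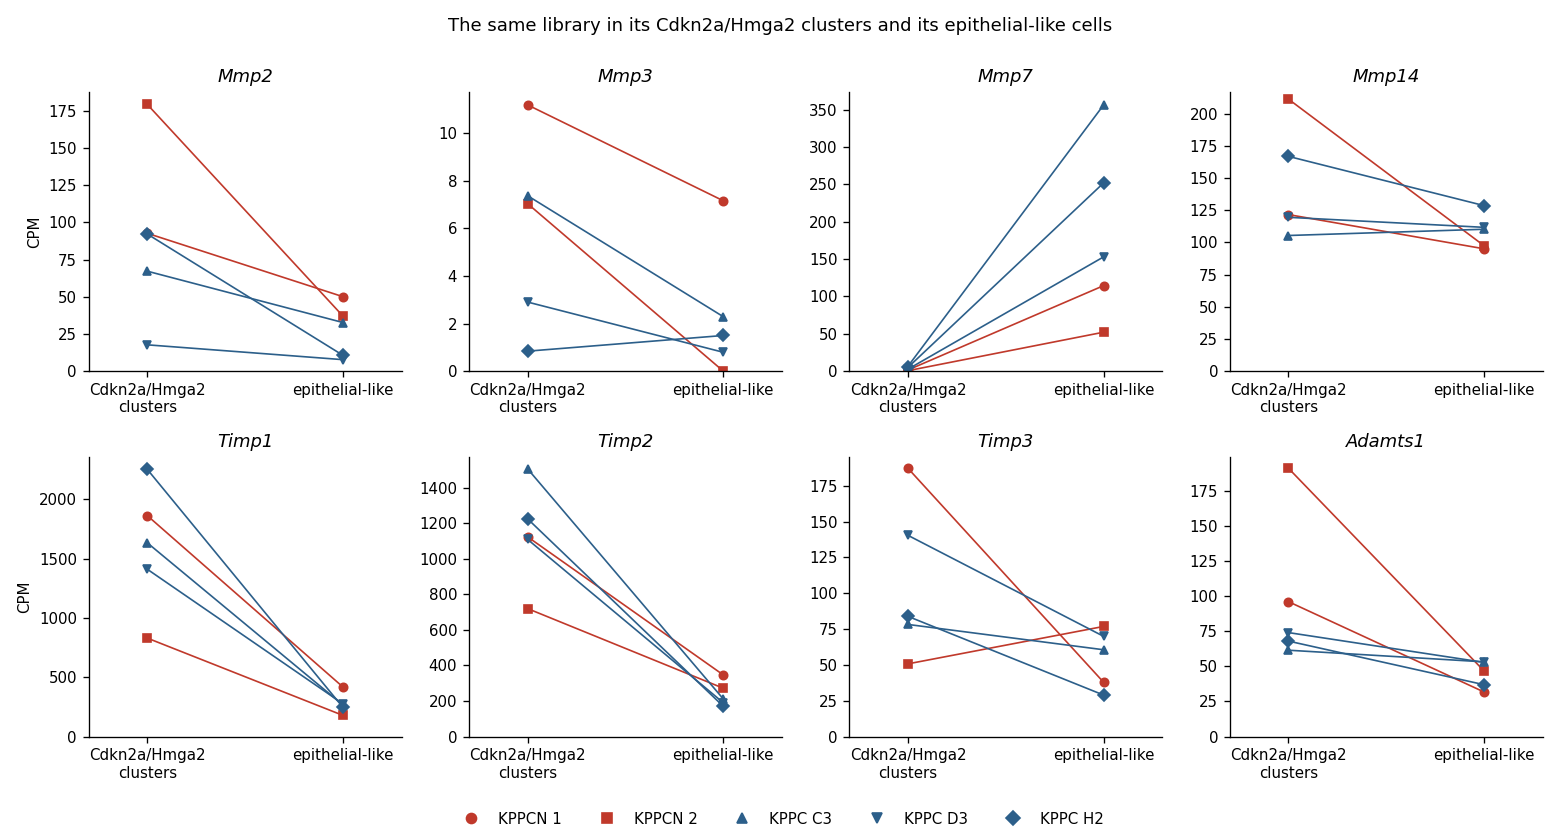
CPM (linear axes from 0, 1 scale per gene) in the Cdkn2a/Hmga2 clusters (left) and the epithelial-like cells (right) of each library, joined by a line (red KPPCN, blue KPPC). All 5 lines descend to the right for Mmp2, Timp1, Timp2 and Adamts1, and all 5 ascend for Mmp7.

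The libraries drew their transcripts of these genes from different populations. Epithelial-like cells supplied 84.8 and 53.5% of all Mmp7 UMIs in KPPCN and 92.0, 96.6 and 94.5% in KPPC, although they were 1.75 and 2.07% of KPPCN cells and 16.8, 30.1 and 30.1% of KPPC cells. Fibroblast-like cells supplied 85.7 and 50.2% of Mmp2 UMIs in KPPCN and 92.8, 80.9 and 92.1% in KPPC. In KPPCN 2 the Cdkn2a/Hmga2 clusters were 72.4% of cells and held 41244551 of the 51838953 UMIs of all shared genes. They supplied 81.8% of Timp2, 74.9% of Adamts1 and 69.0% of Mmp14 UMIs there, to be read beside that total. In KPPC their part was 5.4 to 30.3% of Timp2, 1.4 to 7.2% of Adamts1 and 1.6 to 9.7% of Mmp14 UMIs. In KPPCN 1 these clusters were only 5.46% of cells and held 5188718 of 25746317 UMIs. The large parts are thus those of KPPCN 2 alone, and no difference between genotypes is read from them.

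Mmp2, Mmp14 and Timp2 form the known complex in which pro-Mmp2 is activated at the cell surface, so cells holding all 3 transcripts were counted. After thinning to 1000 UMIs, 11.2 and 8.65% of KPPCN and 15.04, 7.33 and 11.4% of KPPC fibroblast-like cells had all 3. In the Cdkn2a/Hmga2 clusters the share was 0.362 and 1.34% in KPPCN and 0.211, 0 and 0% in KPPC. Unthinned, the fibroblast-like share was 58.1 and 90.8% in KPPCN and 92.6, 69.7 and 86.6% in KPPC, with the low KPPCN 1 value at a median of 4028.5 UMIs per cell against 17934 to 20414.5 in the others. The fibroblast-like ranges of the genotypes overlapped in both counts. The share to be had from each gene's own detection alone was not counted. These shares therefore follow the levels of the single genes and say nothing of the complex itself.

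The genotypes were first compared over all cells of a library. Limma was fitted on log2(CPM + 5) across 12558 genes, with scaled totals and Benjamini-Hochberg adjustment over all of them. It called 0 genes at an adjusted p of 0.05 (0% of the genes tested), with 828 higher and 1198 lower in KPPCN at an unadjusted p under 0.05. Without KPPCN 1 it called 3156 genes, and without KPPCN 2 it called 98. Mmp7 was at 5.13 and 1.37 CPM in KPPCN, beside 72.6, 54.3 and 89.2 CPM in KPPC. Both KPPCN libraries were far below all KPPC libraries. The log2 difference was −3.21 ± 0.32 (SE), with an adjusted p of 0.0739 from limma, which does not pass. Without KPPCN 1, which leaves 1 KPPCN library, it was −3.58, and over all alternatives it ran from −3.94 to −2.81. In such a sum, fewer epithelial-like cells and less RNA per cell cannot be told apart, and the share of epithelial-like cells, given above, moved with it.

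Timp3 over all cells was at 469 and 321 CPM in KPPCN, beside 906, 1326 and 1056 CPM in KPPC, with no overlap. Mesothelial-like cells, the class with the highest mean Timp3, were 0.622 and 0.806% of KPPCN cells and 4.29, 4.54 and 6.33% of KPPC cells, and the Cdkn2a/Hmga2 clusters, low in Timp3, were 5.46 and 72.4% of KPPCN cells and 13.4, 4.01 and 2.19% of KPPC cells. The part of this make-up in the Timp3 value cannot be told apart from the level per cell. Its log2 difference was −1.46 ± 0.26, with an adjusted p of 0.112 from limma. Without KPPCN 1, which leaves 1 KPPCN library, it was −1.77, and over all alternatives it ran from −1.77 to −1.16. These were the 2 members of 8 whose genotype ranges did not overlap, both lower in KPPCN, where 18% of all genes tested lay wholly below KPPC and 18% wholly above. The other 6 members had log2 differences from −0.17 (Timp1) to 0.28 (Mmp14). The median of the 8 was 0.10, beside 0.04 for all genes.

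In fibroblast-like cells, limma called 0 of 12138 genes (0%), with 386 higher and 325 lower in KPPCN at an unadjusted p under 0.05. Timp3, with the values given above, lay lower in both KPPCN libraries than in all KPPC libraries by a small gap of 1383 against 1438 CPM. Its log2 difference was −1.06 ± 0.39 (adjusted p = 0.768, limma). Without cluster 3, held almost wholly by KPPCN 1, it was −0.62 (adjusted p = 0.983, limma). Mmp7, at about 1 CPM in KPPCN, was the other of the 2 members of 8 below KPPC (−0.73 ± 0.22, adjusted p = 0.768, limma), at a level near the 0.78 CPM of T/NK-like cells of KPPCN 1. The 9 epithelial markers, summed in fibroblast-like cells, stood at 208 and 132 CPM in KPPCN and 313, 756 and 346 CPM in KPPC, with 7 of 9 wholly below in KPPCN and none at 0 throughout, and their part in the Mmp7 value was not tested. Of all genes, 9.82% lay wholly below and 14.2% wholly above KPPC. Mmp2, Mmp3, Mmp14, Timp1, Timp2 and Adamts1 differed by −0.17 to 0.33 on the log2 scale, with overlapping libraries. The members' median was 0.001, beside 0.02 for all genes.

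In epithelial-like cells 7 of 12165 genes were called by limma, all higher in KPPCN (0.0575%), and no member was among them. The members came apart in 4 cases, 2 above (19.3% of all genes) and 2 below (14%). Timp2 was above, by 0.64 ± 0.18 on the log2 scale (adjusted p = 0.388, limma), with its lower KPPCN library at 272 CPM and the highest KPPC library at 211 CPM. Mmp2 was above by 1.18 ± 0.55 (adjusted p = 0.486, limma), at 50.1 and 37.0 CPM in KPPCN, beside 32.7, 7.72 and 10.7 CPM in KPPC. The value of KPPCN 1 was under the 70.8 CPM of its own T/NK-like cells. That of C3 was under the 41.4 CPM of its own erythroid-like cells, which rested on 17 UMIs. The 8 fibroblast markers, summed in epithelial-like cells, stood at 1502 and 444 CPM in KPPCN and 820, 369 and 234 CPM in KPPC, with 1 of 8 wholly above in KPPCN and none at 0 in all libraries, and their part in the Mmp2 value was not tested.

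Mmp7 was below in epithelial-like cells, with a log2 difference of −1.28 ± 0.52 (adjusted p = 0.450, limma). With cells thinned to at most 1000 UMIs the difference was −0.38 (adjusted p = 0.854, limma). The 9 epithelial markers summed to 21780 and 15540 CPM in KPPCN and 19540, 18760 and 18890 CPM in KPPC epithelial-like cells. Mmp14 was also below, by a log2 difference of −0.31 ± 0.17 (adjusted p = 0.529, limma). Timp1, Timp3, Mmp3 and Adamts1 overlapped between genotypes. The median over the 8 members was 0.15, and 0.04 over all genes.

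In the Cdkn2a/Hmga2 clusters limma called 0 of 11326 genes (0%), with 299 higher and 368 lower in KPPCN at an unadjusted p under 0.05. Without KPPCN 1 it called 332. Adamts1 and Mmp2 lay above in both KPPCN libraries (10.9% of all genes did) and Mmp7 below (8.29%). The Adamts1 difference was 0.94 ± 0.30 on the log2 scale (adjusted p = 0.776, limma). Without KPPCN 1, which leaves 1 KPPCN library, it was 1.40, and without the 2 clusters held mostly by KPPCN 2 it was −0.0099. In the cluster that held 790 cells of KPPCN 2 and 6 or fewer of any other library (cluster 8, led by Flt1, Cdkn2a and Grem1) Adamts1 was at 225 CPM, and in cluster 10 (Cdkn2a, Hmga2, Lgals3) it was at 113 CPM in KPPCN 1 and 72.3, 93.8 and 55.8 CPM in KPPC. Mmp2 was at 92.7 and 179 CPM in KPPCN, beside 67.2, 17.7 and 92.2 CPM in KPPC, so that KPPCN 1 and H2 were almost level. Its log2 difference was 1.03 ± 0.50 (adjusted p = 0.858, limma). In cluster 10 Mmp2 was at 103 CPM in KPPCN 1 and 75.5, 17.8 and 108 CPM in KPPC. In cluster 8 it was at 212 CPM in KPPCN 2. The 8 fibroblast markers, summed in the Cdkn2a/Hmga2 clusters, stood at 1443 and 1231 CPM in KPPCN and 1153, 534 and 634 CPM in KPPC, with 1 of 8 wholly above in KPPCN. The 9 epithelial markers stood at 3502 and 710 CPM in KPPCN and 2520, 3526 and 1676 CPM in KPPC, with 4 of 9 wholly below in KPPCN. None of either list was at 0 in all libraries, and their part in the Mmp2 and Mmp7 values was not tested. Timp1, Timp2, Timp3, Mmp3 and Mmp14 overlapped, with log2 differences from −0.52 to 0.47. The members' median was 0.14, beside 0.004 for all genes.

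**Figure D4:**
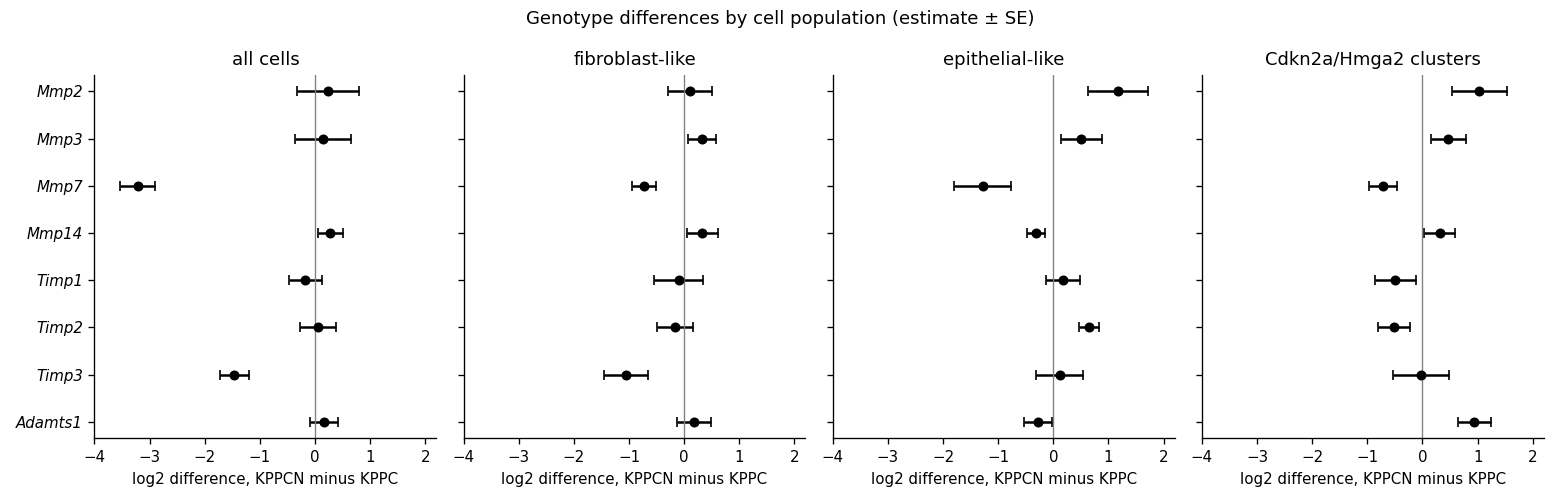
Log2 difference of KPPCN minus KPPC (x axis, estimate ± SE from limma, n = 2 and 3 libraries) for each gene in all cells and in the 3 populations tested. Mmp7 is at −3.21 over all cells and −1.28 in epithelial-like cells, Timp3 is at −1.46 and −1.06 in all cells and fibroblast-like cells, and no estimate passes an adjusted p of 0.05.

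Whether the genotype difference itself differed between populations was tested for the 8 genes in 3 pairs of populations, 24 tests in all. None passed. Limma called 0 of 11188 genes between Cdkn2a/Hmga2 clusters and fibroblast-like cells (508 at an unadjusted p under 0.05), 4 of 11763 between epithelial-like and fibroblast-like cells (0.034%), and 4 of 11221 between Cdkn2a/Hmga2 clusters and epithelial-like cells (0.0356%). The estimate with the lowest p was that of Adamts1, whose difference was 1.298 ± 0.28 greater on the log2 scale in the Cdkn2a/Hmga2 clusters than in epithelial-like cells (adjusted p = 0.347, limma). For Timp2 that estimate was −1.14 ± 0.39 (adjusted p = 0.672, limma). The higher Timp2 in KPPCN epithelial-like cells is therefore not shown to be particular to them.

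Of the 40 further genes of the protease system, 27 to 30 could be tested in each population and none was called. Their median log2 difference was 0.004 over all cells, 0.14 in fibroblast-like cells, 0.37 in epithelial-like cells and 0.17 in the Cdkn2a/Hmga2 clusters. Wholly above KPPC lay 2 over all cells, 4 in fibroblast-like cells, 9 in epithelial-like cells and 6 in the Cdkn2a/Hmga2 clusters, and wholly below 4, 2, 2 and 0, to be read beside the shares of all genes given above for each population. The inhibitor Serpine2, a serpin that blocks thrombin and plasminogen activators, was at 84.6 and 91.0 CPM in KPPCN and 34.5, 31.3 and 31.9 CPM in KPPC Cdkn2a/Hmga2 clusters, and at 24.5 and 42.5 CPM in KPPCN and 7.90, 14.7 and 11.4 CPM in KPPC epithelial-like cells. It lay above KPPC in both populations. The log2 differences were 1.26 ± 0.21 (adjusted p = 0.487) and 1.15 ± 0.26 (adjusted p = 0.331, both limma). In the Cdkn2a/Hmga2 clusters it was 1.29 without KPPCN 1 and 1.88 with thinned cells (adjusted p = 0.0408, limma), and in epithelial-like cells thinning turned it to −0.047.

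Other genes with the largest estimates were the membrane protease Adam15 and the secreted ADAMTS proteases. Adam15 was above KPPC over all cells, with 75.4 and 104 CPM in KPPCN and 56.5, 40.4 and 45.1 CPM in KPPC (0.86 ± 0.22, adjusted p = 0.173, limma), and also in fibroblast-like cells (0.55) and Cdkn2a/Hmga2 clusters (0.76). Adamts9 was below KPPC over all cells, with 29.9 and 14.8 CPM in KPPCN and 44.3, 55.0 and 54.1 CPM in KPPC (−1.08 ± 0.28, adjusted p = 0.179, limma), and in fibroblast-like cells (−0.53). Without KPPCN 1, which leaves 1 KPPCN library, the estimates over all cells were 1.05 for Adam15 and −1.52 for Adamts9. Adamts4, an aggrecan-cutting protease, was at 272 and 113 CPM in KPPCN and 95.3, 70.9 and 100 CPM in KPPC fibroblast-like cells (0.94 ± 0.35, adjusted p = 0.768, limma). The endocytic receptor Lrp1, which clears proteases and inhibitors, differed by 1.07 in epithelial-like cells and by −0.80 in Cdkn2a/Hmga2 clusters. Without KPPCN 1 these estimates were 0.39 and −1.52, and without KPPCN 2 they were 1.38 and −0.063. In epithelial-like cells the membrane protease Mmp15 differed by 1.04, with KPPCN 1 alone high, and by −0.085 without that library. The plasminogen activator Plat differed by −0.85 there, and by −1.16 to −0.43 with 1 library left out. Adamts10 differed by 0.89 over all cells and 0.72 in fibroblast-like cells, and the plasminogen activator Plau by 0.67 over all cells and 0.55 in Cdkn2a/Hmga2 clusters, with KPPCN 2 alone high.

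Among the genes of the system that were read from the KPPCN table alone, Mmp8 (neutrophil collagenase) was concentrated in neutrophil-like cells. KPPCN 1 had 17 Mmp8 UMIs in 14 such cells, 698 CPM (95% Poisson interval 407 to 1118), and KPPCN 2 had 26 in 13 cells, 869 CPM (568 to 1273). Mmp10 (stromelysin 2) was at 6.71 and 4.90 CPM in fibroblast-like cells of the 2 KPPCN libraries. Mmp13 (collagenase 3) was at 7.42 CPM in those of KPPCN 1 but at 0.82 CPM (6 UMIs) in those of KPPCN 2. Mmp16 was at 4.42 CPM in the Cdkn2a/Hmga2 clusters of KPPCN 2 but at 0.96 CPM (5 UMIs) in those of KPPCN 1. They have no KPPC value here and enter no comparison.

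The genes most like each member were sought over 35 sums of 1 class in 1 library, in 11 classes, by the Pearson correlation of log2(CPM + 5) among 8740 genes with at least 10 CPM. The sums of 1 library share its depth and dissociation, and classes weigh on the correlations through the libraries that hold them. Mmp2 was most like Serpinf1 (r = 0.94), Olfml3 and Htra3, and Mmp3 most like Dpep1 (0.96), Svep1 and Lgi2. Mmp7 was most like Tmem45b (0.93), Duox2 and S100a14, and Mmp14 most like Plod3 (0.95), Calu and Pdia5. Timp1 was most like Ak1 (0.94), Gpr153 and Fkbp11, Timp2 most like Ahnak2 (0.92), Ahnak and Lefty1, and Timp3 most like Thbd (0.90) and Hoxa5. Adamts1 was most like Cmtm3 (0.94), Bmpr2 and Ext2. The last gene named for each had r between 0.85 (Lefty1) and 0.94 (Pdia5).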

How the data were processed

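Single-cell RNA libraries (10x 3′ V3) of 2 KPPCN and 3 KPPC tumours were analysed. Seurat 3.0.2, Cell Ranger 2.1.0, R 3.5.1 and the build GRCm38 stand in the submitters' processing notes, with no role for each. The authors deposited natural log values, ln(1 + UMIs per 10000) per cell. Dividing the back-transformed values by the smallest step of each cell gave whole UMIs for 100% of values within 0.01. The KPPC table holds genes found in at least 37 cells, so the 12579 shared genes were used. The KPPC columns form 3 sets with codes that match no sample number and were read as the 3 KPPC samples. Hence the batch in which same-numbered samples were processed in parallel could not be entered.

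Kept were cells with 500 or more genes and a mitochondrial share of 20% or less. The automatic doublet threshold marked 42 of 16970 cells and had not worked, so the highest scores, 0.8% per 1000 cells, were left out (515 cells, and doublets may remain). Clusters came from Scanpy 1.11.5 and leidenalg 0.10.2 (2000 variable genes without 48 protease genes, 30 components, 20 neighbours, resolution 1, no integration). This gave 27 clusters. A cluster took the name of a class whose markers scored at least 1.5 above the median cluster on the log2 scale, led the next class by 0.5 and had 3 markers raised 2-fold. The doublet rule and this score replaced earlier versions after the data were seen.

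UMIs were summed per library and population (20 or more cells). Limma 3.58.1 in R 4.3.3 was fitted on log2(CPM + 5) with trimmed-mean scaled totals, precision weights and an adjusted p threshold of 0.05 (two-sided, Benjamini-Hochberg over all genes). Printed CPM are unscaled, and log2 differences understate changes of low genes. Genes needed 10 UMIs at the median total and 15 in all. P-values measure the spread between these 5 tumours. On simulated data the test recovered 74, 82, 64 and 69% of 2-fold changes in all cells, fibroblast-like cells, epithelial-like cells and Cdkn2a/Hmga2 clusters. Only genes with a mean of at least 20 CPM were changed there. The simulated libraries shared 1 pooled profile and 1 variance for all genes, without the differences in make-up of the real libraries. These shares therefore do not measure the power of the real comparisons. Alternatives were other pseudocounts, filters, scalings, weights, clusterings and depths, and leaving out each library; leaving out blood cells or clusters of 1 library was added after seeing the data. The 8 genes, the list of 40, the marker lists and the tests were chosen with earlier results of these data known. The 8 are named everywhere, and of the list of 40 the 4 largest differences per population among genes with at least 10 CPM. Promoters are RefSeq's, and Mmp2 had no entry. Gene coordinates are GENCODE's (GRCm38). One gene among those most like a member, and one allele that both genotypes share, are not reported here.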

Additional observations from a re-analysis of the deposited data

How the results depend on the processing

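No paired analysis was possible because the KPPC columns carry no replicate numbers. No class other than the 3 populations tested had 20 cells in every library, so the planned fits for other classes could not be made. Leaving out a KPPCN library leaves 1, which is assumed to vary like the others. Such fits have no KPPCN replicate, so for single genes only their estimates are given.

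The number of genes called by limma over all cells was 1 without precision weights and 1 with thinned cells. Thinning each cell to at most 1000 UMIs gave 9 in fibroblast-like cells, 41 in epithelial-like cells and 34 in the Cdkn2a/Hmga2 clusters. In epithelial-like cells it was 27 with a pseudocount of 1 CPM and 0 without weights. For the differences between populations, the pair of Cdkn2a/Hmga2 clusters and fibroblast-like cells had 6 with thinned cells, that of epithelial-like and fibroblast-like cells 0 without weights and 0 thinned, and that of Cdkn2a/Hmga2 clusters and epithelial-like cells 0 without weights and 7 thinned. Leaving out 1 library at a time gave 0 to 3156 called over all cells (3156 without KPPCN 1 and 98 without KPPCN 2), 0 to 0 in fibroblast-like cells, 1 to 11 in epithelial-like cells and 0 to 332 in the Cdkn2a/Hmga2 clusters (332 without KPPCN 1), and 0 to 0, 0 to 8 and 1 to 4 for the 3 differences. The causes were not tested.

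Some log2 differences changed sign. Thinning gave Mmp2 −0.17 and Timp2 −0.21 over all cells, Mmp2 −0.26 in fibroblast-like cells, and Timp1 −0.11, Adamts1 0.30 and Serpine2 −0.047 in epithelial-like cells. In fibroblast-like cells Mmp2 was −0.028 at resolution 0.5. Timp1 and Adamts1 were 0.30 and −0.021 at resolution 2, 0.32 and −0.092 with at least 1000 genes per cell, and 0.28 and −0.033 without the cluster held by KPPCN 1. With at least 1000 genes Timp3 was −0.039 in epithelial-like cells. In the Cdkn2a/Hmga2 clusters Timp3 was 0.0027 with unscaled totals, 0.067 at resolution 0.5, 0.051 at resolution 2, 0.028 with at least 1000 genes and 0.11 without the 2 clusters held mostly by KPPCN 2, where Adamts1 was −0.0099.

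Leaving out 1 library at a time over all cells gave ranges of −0.26 to 0.66 for Mmp2, −0.59 to 0.85 for Mmp3, −0.096 to 0.36 for Timp2, −0.55 to 0.20 for Timp1, −0.10 to 0.42 for Adamts1 and −0.46 to 1.63 for Plau. In fibroblast-like cells they were −0.50 to 0.24 for Timp1, −0.14 to 1.41 for Adamts10, −0.28 to 0.35 for Mmp2, −0.19 to 0.53 for Adamts1 and −0.40 to 0.13 for Timp2. In epithelial-like cells they were −0.36 to 0.90 for Mmp3, −0.64 to 0.65 for Timp1, −0.085 to 1.45 for Mmp15 and −0.46 to 0.37 for Timp3. In the Cdkn2a/Hmga2 clusters they were −0.033 to 0.68 for Mmp14, −1.09 to 0.13 for Timp1, −0.93 to 0.90 for Timp3 and −0.85 to 1.31 for Plau. Without KPPCN 1, which leaves 1 KPPCN library, Plau over all cells was 1.63. Mmp7 and Timp3 over all cells, Timp3 and Mmp7 in fibroblast-like cells, and Mmp7, Timp2 and Mmp2 in epithelial-like cells kept their sign under all alternatives that held them. In fibroblast-like cells Mmp7 was held by 14 alternatives and Timp3 by 15. Levels of each gene in its highest class moved by less than the spread between libraries under 4 other clusterings and filters. KPPCN epithelial-like sums rest on 90 and 41 cells, which limits their precision.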
